A study of Mus musculus with 38 samples.

Results

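Mitochondrial beta-oxidation shortens a fatty acid that has been activated with coenzyme A, and each turn of the cycle uses a dehydrogenase, a hydratase, another dehydrogenase and a thiolase. The 8 genes described here encode the steps after the acyl-CoA dehydrogenases: Hadha and Hadhb, the alpha and beta subunits of the trifunctional protein of the inner membrane, which handles long chains; Echs1, Hadh and Acaa2, the soluble hydratase, hydroxyacyl-CoA dehydrogenase and thiolase that handle shorter chains; and Eci1, Eci2 and Decr1, auxiliary enzymes that move or reduce the double bonds of unsaturated chains. Many genes of this pathway are known targets of the peroxisome proliferator-activated receptors (PPARs), nuclear receptors that bind fatty acids, and fatty acid oxidation is known to be used by intestinal stem and progenitor cells. The members were the rows of the deposited count table whose Ensembl identifiers carry these symbols in the GENCODE annotation of mm10. All 8 were found among 54352 identifiers, and all 8 passed the filter on low counts, with 4902 genes tested in all.

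Organoids grown from intestinal crypts of C57BL6 mice were kept for 8 days over 2 passages in 65% matrigel, with either 1 uM GW501516 (GW, a synthetic agonist of PPARδ) or 0.1% DMSO as vehicle. The mice were wild type (WT), carried the genotype Ppard-fl/fl, described as a Ppard knockout (D), were Ppara-null (A), or carried both (DA). The labels name no recombinase for the floxed allele, and they do not say whether libraries of a group came from separate mice or cultures, so p-values measure only the spread between these libraries. Polyadenylated RNA was profiled by 3′ digital gene expression, which counts tags at the 3′ end of transcripts. Vehicle groups held 5 libraries each in WT, D and A but 4 in DA; GW groups held 5 each in WT, A and DA but 3 in D.

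Total counts ran from 353347 to 577557 per library, and the members rest on 14 (Eci1) to 253 (Acaa2) counts in a library. Levels are given as CPM, counts scaled to a library total of 1000000. Mitochondrially encoded genes took 7.55% to 10.6% of counts. Ppara averaged 17.3 CPM ± 7.08 (SD, n = 5) in WT with vehicle and 3.64 ± 2.14 (SD, n = 5) in A. Ppard had 0 to 4 counts in every library, so its tags could not check the deletion. Column names carry library numbers that fall in a run from 1 to 36 (23 libraries) and a run from 37 to 60 (14 libraries). The labels do not say what these numbers mark, and Hadha, Hadhb and Acaa2 had a higher mean in the run from 37 to 60 in 8 of 8 groups, so values within each run are given beside the results that passed. 4 columns are named for GW in D, where 3 samples had that group; the 3 with the plain name were used, and a sample whose labels disagree on its genotype may be among them. Of 5 immune markers 3 were at 0 counts in all 37 libraries, Ptprc and Cd3e among them, and the 5 summed to at most 7.82 CPM (median 1.90); of 5 stromal markers 3 were at 0 (Col1a1, Col3a1, Pdgfra), and the 5 summed to at most 2.47 CPM. By contrast, Paneth cell markers summed to a median of 11356 CPM, goblet cell markers to 3560 CPM, enterocyte markers to 2716 CPM and stem cell markers to 197 CPM.

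With GW, 3 of the 8 members rose in WT organoids, Eci2, Hadha and Hadhb, and 4 of the 8 in A organoids, the same 3 and Acaa2, at an adjusted p under 0.05 (quasi-likelihood test of edgeR, p-values adjusted over all genes tested by Benjamini-Hochberg). Of all 4902 genes, 0.408% passed for GW in WT and 0.306% in A. Hadh, Echs1, Eci1 and Decr1 passed in neither. In D and in DA 0 of the 8 passed, and in both genotypes 0 of all genes did (0%). Fitted within a run of library numbers alone, with 2 or 3 libraries a group, 2 members passed in WT and 1 in A in libraries 1 to 36, and 0 and 2 in libraries 37 to 60. The plot of each member by library shows these values.

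**Figure D1:**
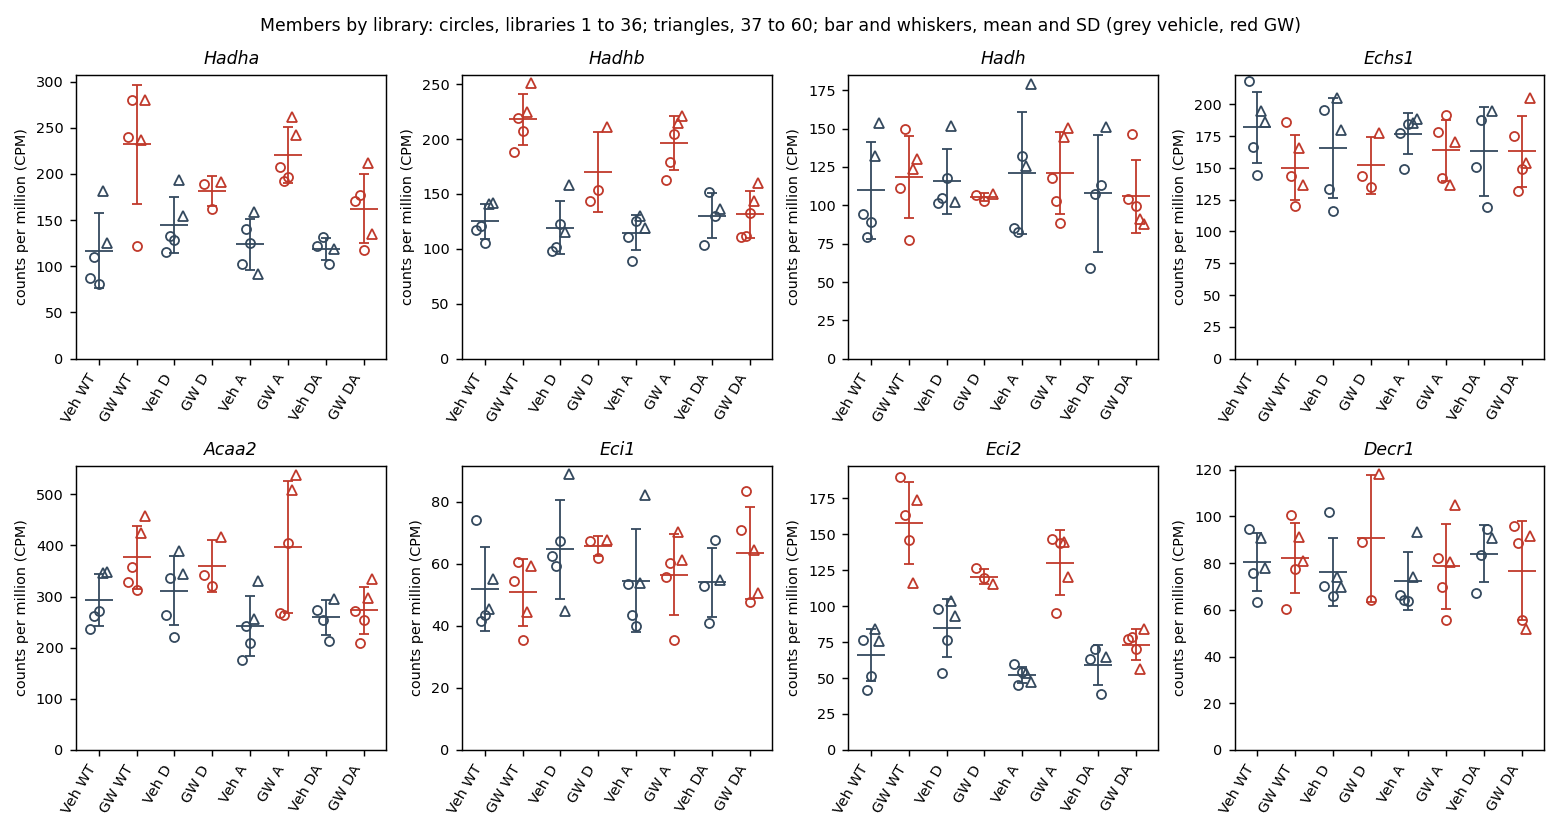
Normalised read counts (CPM, linear axes from 0) of the 8 members in each library of the 8 groups; each point is a library, horizontal bars are group means and whiskers the SD, with vehicle in grey and GW in red, circles for library numbers 1 to 36 and triangles for 37 to 60. Hadhb and Eci2 separate GW from vehicle in WT and A, while Hadh, Echs1, Eci1 and Decr1 overlap between treatments there. Of all genes, 0.714% in WT and 0.449% in A had every GW library above every vehicle library.

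Hadha and Hadhb lie head to head on chromosome 5 (mm10): Hadha (ENSMUSG00000025745) at chr5:30118304-30155162 on the minus strand and Hadhb (ENSMUSG00000059447) at chr5:30155248-30184593 on the plus strand. The 85 bases between their annotated 5′ ends are shown because both subunits rose together. The sequence, from RefSeq's GRCm38.p6 promoter table, is chr5:30155163-30155247 on the plus strand, 5′ to 3′, with GC boxes (GGGCGG on either strand) in capitals:
Hadha-Hadhb: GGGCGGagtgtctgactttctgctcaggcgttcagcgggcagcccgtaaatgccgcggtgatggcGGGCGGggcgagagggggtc
It holds 2 GC boxes and overlaps no annotated exon. Eci2 (ENSMUSG00000021417, chr13:34977748-35027096, minus strand) had the largest response among the members in WT and in A. Echs1 (ENSMUSG00000025465, chr7:140105710-140116476, minus strand) had a lower mean with GW in WT, a difference that did not pass (edgeR, adjusted p = 0.732). The stretches upstream of their annotated starts are set side by side. They are chr13:34994282-34994394 and chr7:140116477-140116671, both on the minus strand and outside annotated exons (the first lies upstream of the RefSeq start used, inside the longer GENCODE span of Eci2), with GC boxes, CCAAT boxes and the nuclear receptor half-site AGGTCA (both strands) in capitals:
Eci2: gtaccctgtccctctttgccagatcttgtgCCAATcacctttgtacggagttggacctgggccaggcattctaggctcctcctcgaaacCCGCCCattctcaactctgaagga
Echs1: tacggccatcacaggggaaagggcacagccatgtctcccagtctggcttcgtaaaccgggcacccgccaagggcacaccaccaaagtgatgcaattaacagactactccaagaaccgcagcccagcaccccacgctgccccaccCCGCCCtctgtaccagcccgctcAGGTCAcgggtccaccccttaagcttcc
PPARs bind DNA with the retinoid X receptor at a direct repeat of this half-site, searched here in its strict form, AGGTCA and AGGTCA with any 1 base between. Of the 6 members with a promoter window of 300 bases in the table, none held the strict repeat, against 0.0396% of 32851 windows of all genes, and only Echs1 held AGGTCA, against 16.3%. All 6 of these windows held a GC box, against 35.7% of all windows, and those of Hadh and Eci2 held a CCAAT box, against 37.4%. The windows of Hadha and Hadhb overlap. These shares are for windows of 300 bases, longer than the stretches printed above. A match is a description of letters, and the absence of one in this window says nothing of binding elsewhere.

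Hadha encodes the trifunctional subunit with the long-chain hydratase and hydroxyacyl-CoA dehydrogenase activities. In WT it stood at 81.2, 87.7, 109.7, 125 and 182 CPM with vehicle and at 122, 237, 240.4, 279.8 and 280.3 CPM with GW. 4 of the 5 GW libraries lay above every vehicle library, and the fifth, at 122 CPM, lay within the vehicle range. The fitted difference was a log2 fold change of 0.95 ± 0.19 (SE; 1.94-fold, 95% interval 1.49 to 2.52; adjusted p = 0.00298). Within the runs of library numbers it was 1.17 and 0.73. The call was lost with only the groups compared in the fit (log2 fold change 0.95; edgeR, adjusted p = 0.0986) and in libraries 37 to 60 alone (edgeR, adjusted p = 0.383).

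In A, Hadha stood at 91.5, 103, 125, 141 and 159 CPM with vehicle and at 192, 197, 207, 243 and 261 CPM with GW, and the groups did not overlap, as for 0.449% of all genes. Its log2 fold change was 0.86 ± 0.19 (SE; edgeR, adjusted p = 0.0242), with 0.73 and 1.04 within the runs. Neither run alone passed (edgeR, adjusted p = 0.955 and 0.243), nor did the fit without the suffix-2 columns (edgeR, adjusted p = 0.0579). The call was lost when vehicle replicate 1 or 5 or GW replicate 4 or 5 of A was left out (edgeR, adjusted p = 0.106, 0.137, 0.0787 and 0.0961 in that order), with log2 fold changes of 0.80, 0.75, 0.82 and 0.83. In D, vehicle libraries stood at 115 to 193 CPM (median 133) and the 3 GW libraries at 163, 189 and 192 CPM, inside that range. In DA, vehicle libraries stood at 103, 119, 122 and 132 CPM and GW libraries at 118, 135, 171, 177 and 212 CPM, so that 4 of 5 lay above all vehicle libraries. The difference in DA, 0.45 ± 0.20 on the log2 scale, had an unadjusted p of 0.0316 and did not pass after adjustment (edgeR, adjusted p = 0.9998).

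Hadhb encodes the partner subunit, the long-chain thiolase. In WT it stood at 105, 117, 121, 141 and 142 CPM with vehicle and at 188, 207, 219, 225 and 251 CPM with GW. Every GW library lay above every vehicle library, as for 0.714% of all genes. The log2 fold change was 0.76 ± 0.13 (SE; 1.70-fold, 95% interval 1.41 to 2.04; edgeR, adjusted p = 0.000733), with 0.81 and 0.72 within the runs. In A it stood at 88.9, 111, 119, 125 and 129.7 CPM with vehicle and at 162, 179, 204, 215 and 221 CPM with GW. The groups again did not overlap, as for 0.449% of all genes in A. The log2 fold change in A was 0.80 ± 0.13 (SE; edgeR, adjusted p = 0.000701), with 0.79 and 0.84 within the runs. Hadhb passed in neither run alone, in WT (edgeR, adjusted p = 0.0679 and 0.208) or in A (edgeR, adjusted p = 0.334 and 0.144). Both subunits were thus higher with GW in WT and in A, with intervals that overlapped each other.

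Hadhb in D stood at 97.8, 102, 115, 123 and 159 CPM with vehicle and at 144, 154 and 211 CPM with GW, where 1 of 3 GW libraries lay above all vehicle libraries. Its log2 fold change there was 0.49 ± 0.16 (SE), with an unadjusted p of 0.00309 that did not survive adjustment over all genes (edgeR, adjusted p = 0.9999). In DA the groups lay over each other, at 104, 129.5, 136 and 152 CPM with vehicle and at 110.5, 111, 132, 143 and 160.1 CPM with GW. The log2 fold change in DA was 0.02 ± 0.14 (SE), with a 95% interval from -0.27 to 0.31. The Hadhb value in the deposited log2 table was a whole number of reads (within 0.01) in 0 of 37 libraries. Its deposited counts are thus rounded estimates, as Salmon gives where reads match several transcripts. The genes that share its reads were not identified. The other subunit, Hadha, was whole in 37 of 37.

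Eci2 encodes an enoyl-CoA isomerase that moves a double bond into the position the cycle can use. Vehicle libraries in WT stood at 41.6, 51.5, 75.8, 76.5 and 84.3 CPM and GW libraries at 116, 146, 163, 174 and 189.9 CPM. In A they stood at 45.5, 47.6, 53.7, 54.3 and 59.8 CPM with vehicle and at 95.2, 120.2, 144, 145 and 147 CPM with GW. The groups did not overlap in either genotype, as for 0.714% of all genes in WT and 0.449% in A. The log2 fold change was 1.25 ± 0.17 (SE; 2.37-fold, 95% interval 1.87 to 3.01; edgeR, adjusted p = 6.41e-06) in WT and 1.35 ± 0.18 (SE; edgeR, adjusted p = 5.78e-06) in A. Within the runs the log2 fold changes were 1.55 and 0.84 in WT and 1.31 and 1.41 in A. Eci2 passed in each run alone but libraries 37 to 60 in WT (edgeR, adjusted p = 0.297).

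In D, Eci2 stood at 53.8, 76.2, 92.8, 97.8 and 103 CPM with vehicle and at 116, 119.7 and 126 CPM with GW. All 3 GW libraries lay above all vehicle libraries, as for 1.04% of all genes in that comparison, and the log2 fold change was 0.51 ± 0.19 (SE; unadjusted p = 0.0117; edgeR, adjusted p = 0.9999). In DA it stood at 39.1, 63, 64.3 and 70.4 CPM with vehicle and at 56.1, 70.3, 77.1, 78.5 and 84 CPM with GW, with overlap and a log2 fold change of 0.31 ± 0.19 (SE). Eci2 has a near-identical copy, Eci3, with 0 to 5 counts per library; in the 22 libraries where the Eci2 value was not whole, the sum of both genes was whole in 22. With their counts summed, an alternative chosen after seeing the data, the log2 fold change of GW was 1.23 in WT and 1.35 in A, and the calls were the same.

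Acaa2 (ENSMUSG00000036880, chr18:74779197-74806208, plus strand) encodes the soluble thiolase of medium chains. In A it stood at 175, 210.1, 242, 256 and 331 CPM with vehicle and at 264, 267, 404, 509 and 537 CPM with GW. 3 of 5 GW libraries lay above all vehicle libraries, and the other two lay within the vehicle range. The log2 fold change was 0.73 ± 0.16 (SE; 1.65-fold, 95% interval 1.32 to 2.08; edgeR, adjusted p = 0.0296), with 0.61 and 0.86 within the runs. This call was lost when vehicle replicate 1, 2, 3 or 4 of A was left out (edgeR, adjusted p = 0.174, 0.0546, 0.0993 and 0.0879; log2 fold changes 0.63, 0.74, 0.69 and 0.72). It was also lost without GW replicate 3, 4 or 5 (edgeR, adjusted p = 0.0924, 0.133 and 0.244; log2 fold changes 0.70, 0.65 and 0.61), with only the groups compared in the fit (0.72; edgeR, adjusted p = 0.437) and in libraries 1 to 36 alone (edgeR, adjusted p = 0.955).

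In WT, Acaa2 stood at 236, 263, 271, 346 and 347 CPM with vehicle and at 313, 329, 358, 424 and 458 CPM with GW. The ranges overlapped, and the log2 fold change was 0.32 ± 0.16 (SE; edgeR, adjusted p = 0.789), with 0.35 and 0.31 within the runs. The response in A exceeded that in WT by 0.40 ± 0.23 on the log2 scale, which did not pass (edgeR, adjusted p = 0.9998), so the passing call in A and its absence in WT are not shown to differ. In D the log2 fold change was 0.21 ± 0.19 (SE), from 311 CPM ± 67.4 (SD, n = 5) to 359.9 ± 50.7 (SD, n = 3), and in DA it was 0.08 ± 0.17 (SE), from 259 CPM ± 34.7 (SD, n = 4) to 273 ± 46.3 (SD, n = 5).

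The soluble hydratase Echs1 had a lower mean under GW in WT, with an unadjusted p under 0.05, as had 6.18% of all genes in either direction. It stood at 145, 166, 186, 195 and 218 CPM with vehicle and at 120.1, 136, 143, 165 and 186 CPM with GW. The ranges overlapped, with 3 of 5 GW libraries below all vehicle libraries. The log2 fold change was -0.31 ± 0.14 (SE; unadjusted p = 0.0317; edgeR, adjusted p = 0.732), and it was -0.12 ± 0.16 in D, -0.08 ± 0.14 in A and 0.00 ± 0.15 in DA. Paox overlaps Echs1 on the opposite strand and had 232 counts over all libraries against 2927 for Echs1. The strand setting of the counting is not given in the sources used here. The Echs1 value was not whole in 17 of 37 libraries, so its counts there are rounded estimates.

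Hadh (ENSMUSG00000027984, chr3:131233419-131272101, minus strand), the soluble dehydrogenase of shorter hydroxyacyl chains, averaged 109.7 CPM ± 31.6 (SD, n = 5) with vehicle and 118 ± 26.8 (SD, n = 5) with GW in WT. Over the 8 groups its means ran from 105 to 121 CPM, a span smaller than the SD within several of them. The log2 fold change of GW was 0.08 ± 0.21 (SE) in WT, with a 95% interval of 0.789-fold to 1.43-fold.

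Eci1 (ENSMUSG00000024132, chr17:24426641-24439348, plus strand), the other isomerase among the members, averaged 52 CPM ± 13.5 (SD, n = 5) with vehicle and 50.8 ± 10.7 (SD, n = 5) with GW in WT. Its log2 fold change was -0.05 ± 0.21 (SE), and the 95% interval of 0.715-fold to 1.31-fold did not meet that of Eci2 in WT, 1.87-fold to 3.01-fold. In A the fold change of Eci1 was 0.08 ± 0.21 on the log2 scale, against 1.35 ± 0.18 for Eci2. The difference between the isomerases was not tested as such. The Eci1 value was not whole in 21 of 37 libraries, so its counts there are rounded estimates, and the genes that share its reads were not identified.

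Decr1 (ENSMUSG00000028223, chr4:15917240-15945507, minus strand), the reductase for dienoyl-CoA, averaged 80.4 CPM ± 12.5 (SD, n = 5) with vehicle and 82.2 ± 15.1 (SD, n = 5) with GW in WT. Its log2 fold change was -0.00 ± 0.18 (SE) in WT and 0.15 ± 0.19 (SE) in A. For Hadh, Echs1, Eci1 and Decr1 together, the 95% intervals of the GW effect reached at most 1.43-fold in WT and 1.44-fold in A, and at least 0.663-fold and 0.761-fold, so changes within those bounds are not excluded.

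**Figure D2:**
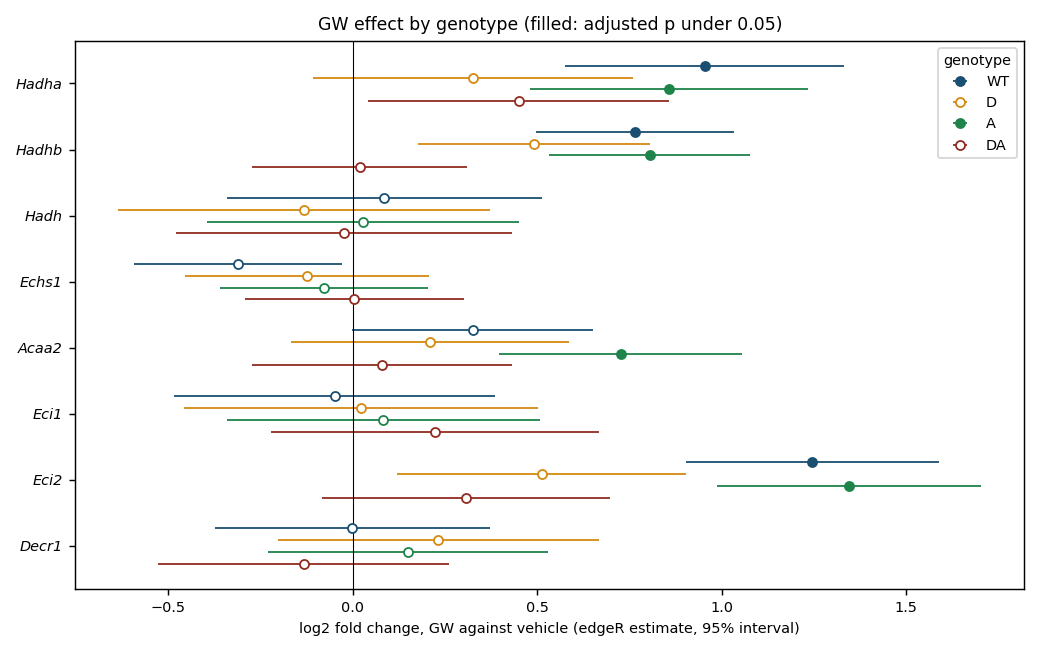
Fitted log2 fold change of GW against vehicle for each member in WT, D, A and DA (edgeR estimate, horizontal bars are 95% intervals; filled points have an adjusted p under 0.05). The 7 filled points belong to Hadha, Hadhb and Eci2 in WT and to those genes and Acaa2 in A.

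Over the 8 members the median log2 fold change of GW was 0.20 in WT, 0.22 in D, 0.44 in A and 0.05 in DA, beside medians of 0.01, -0.00, 0.00 and -0.00 over all genes tested. In D, 159 of all genes (3.24%) had an unadjusted p under 0.05, and Hadhb and Eci2 among the members did. In DA, 157 (3.2%) did, with Hadha as the only member. DESeq2 called 0 genes in D and 1 in DA, which was none of the members, and limma called 0 in both. The edgeR fit without the filter on low counts did call genes in both genotypes, as the last paragraph gives.

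The difference in response between genotypes was tested directly, since a call in WT and no call in D or DA does not show a difference. For 0 of the 8 members did any of 5 such differences pass; over all genes 0.0816% passed for DA minus WT and 0% in the other four. The GW response of Hadhb was lower in DA than in WT by -0.74 ± 0.20 (log2, SE; unadjusted p = 0.000488; edgeR, adjusted p = 0.239), and that of Eci2 by -0.94 ± 0.26 (unadjusted p = 0.000774; edgeR, adjusted p = 0.292). Against A, the response in DA was lower by -0.79 ± 0.20 for Hadhb and by -1.04 ± 0.26 for Eci2 (edgeR, adjusted p = 0.304 for each), and by -0.65 ± 0.24 for Acaa2 (unadjusted p = 0.00963; edgeR, adjusted p = 0.9999). Against WT, the response in D was lower by -0.73 ± 0.26 for Eci2 (unadjusted p = 0.00714) and by -0.63 ± 0.29 for Hadha (unadjusted p = 0.0341; edgeR, adjusted p = 0.99997 for each). The response of Hadhb was lower in DA than in D by -0.47 ± 0.21 (unadjusted p = 0.0317; edgeR, adjusted p = 0.9997). Of all genes, 4.1% had an unadjusted p under 0.05 for DA minus WT, 3.04% for DA minus A, 3.22% for D minus WT and 2.75% for DA minus D. These comparisons share libraries, so their estimates are not independent.

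Under GW, 2 members were lower in DA than in WT at an adjusted p under 0.05, among 0.836% of all genes (0.592% in that direction). Eci2 averaged 158 CPM ± 28.3 (SD, n = 5) in WT and 73.2 ± 10.7 (SD, n = 5) in DA, a log2 fold change of -1.14 ± 0.17 (SE; edgeR, adjusted p = 4.73e-05). Hadhb averaged 218 ± 23.1 and 132 ± 21.3 CPM (SD, n = 5 each), a log2 fold change of -0.75 ± 0.13 (SE; edgeR, adjusted p = 0.00122). For both, every DA library lay below every WT library, as for 0.775% of all genes, and within the runs the log2 fold changes were -1.18 and -1.06 for Eci2 and -0.82 and -0.65 for Hadhb. Neither passed in libraries 37 to 60 alone (edgeR, adjusted p = 0.0699 and 0.175).

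Hadha and Acaa2 were lower in DA than in WT under GW by -0.54 ± 0.18 and -0.48 ± 0.16 (log2, SE) and did not pass (edgeR, adjusted p = 0.248 for each). Within the runs the log2 fold changes were -0.51 and -0.59 for Hadha and -0.48 and -0.48 for Acaa2. With a block for the library-number run Acaa2 passed (log2 fold change -0.48; edgeR, adjusted p = 0.0448). Of the 10 fits with 1 library left out, Hadha passed only in that without the WT library at 122 CPM. Its log2 fold change was then -0.69 (edgeR, adjusted p = 0.0364). The other four members had log2 fold changes between -0.19 and 0.28 in this comparison. Eci1 in D under GW stood at 62, 67.5 and 67.6 CPM, above all 5 WT libraries under GW, as for 0.592% of all genes, and its difference did not pass the test.

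In D, A and DA against WT, 0 of the 8 members passed in vehicle, where 0.0408%, 0.0816% and 0.326% of all genes did. The unadjusted p was under 0.05 for Eci2 in D (log2 fold change 0.39 ± 0.18) and for Eci2 (-0.40 ± 0.19) and Acaa2 (-0.34 ± 0.16) in A, where 3.47% and 4.45% of all genes had one. Under GW, 0 of the 8 passed in D or A against WT (background 0.0612% and 0.184%), and Hadhb in D had the only unadjusted p under 0.05 (-0.33 ± 0.15), beside 3.47% of all genes in D.

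**Figure D3:**
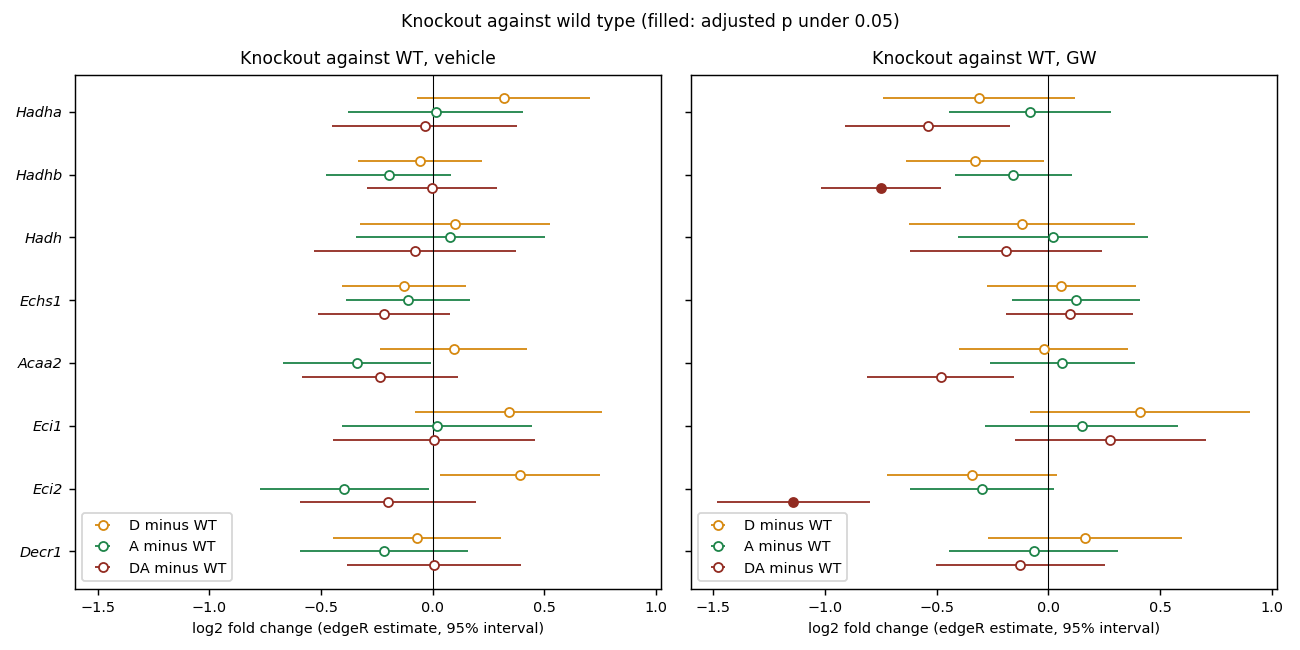
Fitted log2 fold change of each knockout against WT with vehicle (left) and under GW (right) for the 8 members (edgeR estimate, bars are 95% intervals; filled points have an adjusted p under 0.05). The 2 filled points are Eci2 and Hadhb in DA under GW.

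In order of group means, Eci2 was highest in WT with GW, then A with GW at 130.2 CPM and D with GW at 121 CPM, and neither D nor A passed a test against WT under GW. D with vehicle (84.8 CPM) and DA with GW (73.2 CPM) came next, and A with vehicle was lowest at 52.2 CPM, 3.02-fold below the highest mean. Hadha and Hadhb had the same first 4 places: WT, A, D and DA with GW. For Hadhb the last of these places rested on a small difference. DA averaged 132 CPM ± 21.3 (SD, n = 5) with GW and 130 ± 20.1 (SD, n = 4) with vehicle. The highest mean of Hadha and Hadhb was 1.98-fold and 1.90-fold the lowest, against 1.15-fold for Hadh.

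Across all 37 libraries the log2 CPM of Hadha, Hadhb, Eci2 and Acaa2 were correlated, with a median Pearson's r of 0.68 over their 6 pairs (0.61 to 0.76), against 0.06 over the other 22 pairs. These 4 genes were set apart after their values were seen, and the libraries share treatment groups and library runs. After each group's mean was subtracted, the median r was 0.11 for the 6 pairs and 0.03 for the other pairs. With the mean of each group and run subtracted, it was 0.00818 for the 6 pairs and 0.0446 for the other pairs. For the subunit pair Hadha and Hadhb, r was 0.68 over all libraries, 0.11 within groups and -0.01 within group and run. The 5 genes outside the members most like their mean standardised log2 CPM were taken from 4644 compared over 37 libraries. Acadvl (very long-chain acyl-CoA dehydrogenase, r = 0.80), Adipor2 (an adiponectin receptor, r = 0.75) and Etfb (a subunit of the electron transfer flavoprotein, r = 0.75) came first. Hsd17b11 (a lipid droplet dehydrogenase, r = 0.74) and Creb3l3 (a membrane-bound transcription factor, r = 0.74) followed. With each group's mean subtracted, the r of these 5 genes ran from 0.49 to 0.67.

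**Figure D4:**
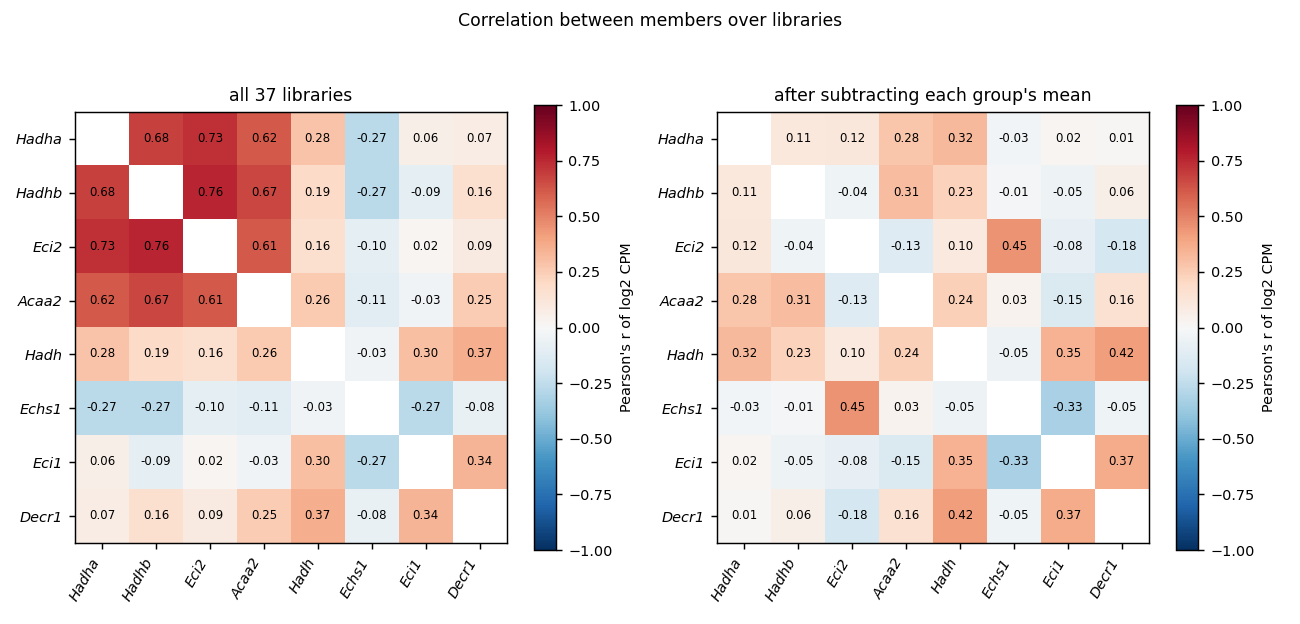
Pearson's r between the log2 CPM of pairs of members, over all 37 libraries (left) and after subtracting each group's mean (right); colour runs from -1 to 1. The block of Hadha, Hadhb, Eci2 and Acaa2 has a median r of 0.68 on the left and 0.11 on the right.

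Genes before these steps in the pathway moved in part. Of the carnitine shuttle list, which brings fatty acyl groups into mitochondria, 3 of 6 genes were tested and 1 rose in WT and in A: Slc25a20, the carnitine-acylcarnitine carrier, with log2 fold changes of 1.31 ± 0.28 (SE; edgeR, adjusted p = 0.009) and 1.52 ± 0.30 (SE; edgeR, adjusted p = 0.00789). Cpt2 and Cpt1a, the inner and outer membrane carnitine palmitoyltransferases, had 1.14 ± 0.38 and 0.84 ± 0.28 in WT without passing. Of 8 tested acyl-CoA dehydrogenase and electron transfer genes, 1 rose in both genotypes: Acadl, the long-chain dehydrogenase, with 0.97 ± 0.22 in WT (SE; edgeR, adjusted p = 0.0217) and 0.93 ± 0.22 in A (SE; edgeR, adjusted p = 0.0455). Acadvl (0.76 ± 0.21 in WT) and Etfb (0.44 ± 0.15) did not pass.

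The peroxisome holds a beta-oxidation pathway of its own. Of the 8 tested genes listed for it, 0 passed in WT or A, with median log2 fold changes of 0.31 and 0.26. Where in the cell the product of a gene acts was not measured, for Eci2 as for the others. Eci3, the near-identical copy of Eci2, was also listed for the peroxisome but was not among the tested genes. Among the tested peroxisomal genes, the smallest p in WT was that of Acaa1b (a peroxisomal thiolase, 2.68 ± 0.72). Ech1 (a dienoyl-CoA isomerase, 0.44 ± 0.12) and Hsd17b4 (the peroxisomal multifunctional enzyme, 0.73 ± 0.24) came next. Acaa1b was near the floor, at 2.54 CPM ± 4.70 (SD) with vehicle and 17.6 ± 6.78 (SD) with GW in WT. In A its log2 fold change was 0.61 ± 0.73 (SE). Of 4 tested relatives of the crotonase family, to which members such as Echs1, Eci1 and Eci2 belong, 0 passed, with medians of -0.04 and 0.02. This list and the peroxisomal list share genes, Ech1 and Ehhadh among them. Of 16 TCA cycle genes, which take up the acetyl-CoA made by the thiolases, 0 passed, with medians of -0.02 and -0.03. In D and DA, 0 genes of these lists passed, where 0% of all genes did. In WT and A, 0.408% and 0.306% of all genes passed.

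**Figure D5:**
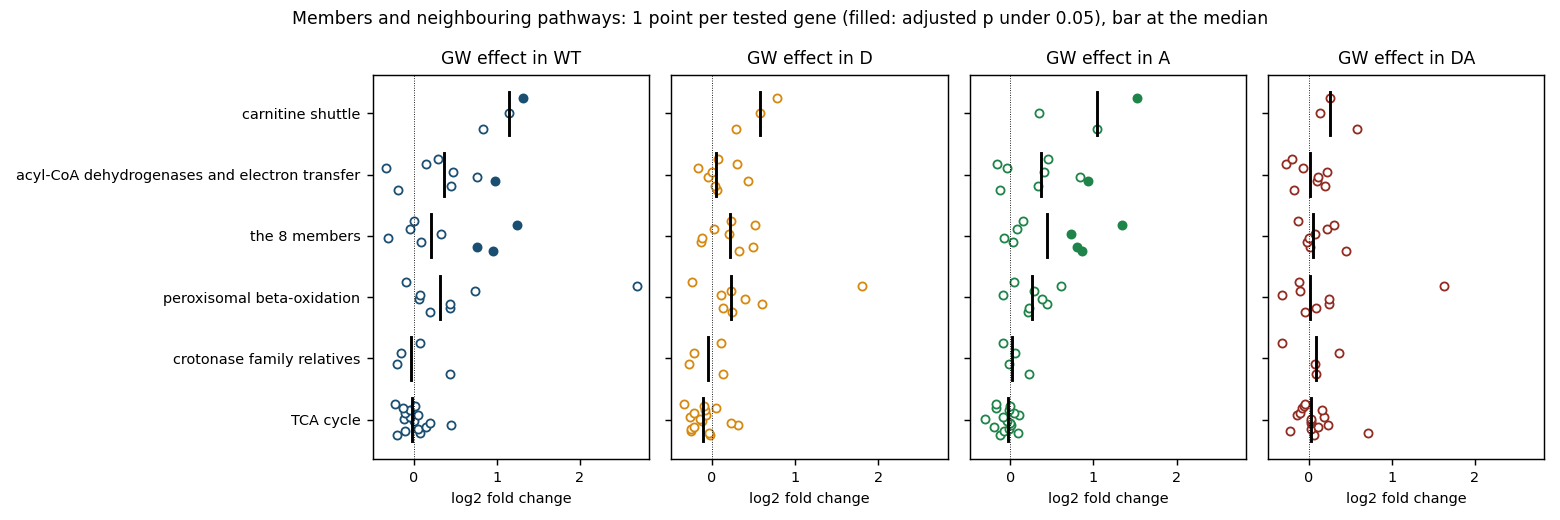
Log2 fold change of GW against vehicle in WT, D, A and DA for each tested gene (1 point per gene; filled points have an adjusted p under 0.05; vertical bars are list medians). The carnitine shuttle has the highest median in WT, 1.14, and the TCA cycle genes lie around 0.

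Of 5 tested enteroendocrine marker genes, 0 passed for GW in any of the 4 genotypes. The summed level of the 8 markers had a median of 87.2 CPM (range 77.5 to 139) with vehicle and 153 CPM (121 to 175) with GW in WT, and of 128 CPM (86.8 to 145) and 105 CPM (91.8 to 145) in A. In D the medians were 127 CPM (82.1 to 135) and 178 CPM (150.2 to 184), and in DA 124 CPM (98.7 to 146) and 135 CPM (119.9 to 172). The ranges with vehicle and GW overlapped in WT, A and DA but not in D. Of single genes tested, 1.04% had every GW library above every vehicle library in D, where GW had 3 libraries. None of the enteroendocrine genes was at 0 in all libraries. Of 4 stem, 8 enterocyte, 6 Paneth and 5 goblet markers tested, 0 passed for GW in any genotype. Of all genes, 0.408% passed in WT, 0.306% in A and 0% in D and DA. Marker lists this short would thus rarely hold a passing gene, and in D and DA none could. The stem, enterocyte, Paneth and goblet markers had median log2 fold changes of -0.05, -0.09, -0.04 and 0.13 in WT. For the enteroendocrine markers it was 0.54. In bulk organoids a change in the number of cells of a type and a change in RNA per cell cannot be told apart, and the part of cell composition in the members' levels was not tested.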

How the data were processed

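Deposited by the authors were a table of whole-number counts, with 1 row per Ensembl gene, and a table of log2 values, which by its values holds log2 of CPM plus 1. The submitters' processing notes name the build mm10 and the tools edgeR 3.26.8, Salmon 1.1.0 and R 3.6.2; the annotation release, the strand setting, the handling of molecular identifiers and any filter are not given in the sources used here. At a tolerance of 0.01, 90.4% of the nonzero values of the deposited log2 table were whole counts. Salmon's counts of genes that share sequence are estimates, and the deposited count table holds them rounded.

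Of 57 columns, 37 were joined to the 8 groups from the genotype and treatment that their names give. No column carries a replicate number, so replicate numbers here only follow the order of a group's columns. Another 20 columns were not used: 19 with the letters KD, and 1 of the 4 named for GW in D. 1 of the 38 samples was unassigned. Symbols and positions came from GENCODE for mm10, in which 54179 of 54352 identifiers had a symbol, and promoter sequences from RefSeq (GRCm38.p6), which held 6 of the 8 members.

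Genes were filtered with edgeR's filterByExpr by group, scaled by TMM and fitted over all 8 groups by glmQLFit and glmQLFTest of edgeR 4.0.16 (R 4.3.3); 15 comparisons were adjusted by Benjamini-Hochberg, each over 4902 genes, with a threshold of 0.05 on the adjusted p. CPM values are plain, without TMM scaling. log2 CPM for correlations used a prior count of 2. The procedure was tested on simulated data. Alternatives used RLE size factors, no filter, DESeq2 1.42.0, limma 3.58.1, the groups compared alone, a block for the library-number run, each run alone, no columns with the suffix 2, each library left out, and Eci2 and Eci3 summed. The members are named in every comparison, and of each pathway list up to 3 genes with the smallest p for GW in WT. The members and lists were chosen with earlier results of these data known. 1 pathway list is not reported here. Total counts of 353347 to 577557 per library limit the precision, most for Eci1 with 14 to 46 counts a library, and the spread between libraries includes this counting error.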

Additional observations from a re-analysis of the deposited data

Results flagged for a closer look

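Of 56 combinations of a member and a group of 4 or 5 libraries, 4 held a library set apart from the others of its group by Dixon's criterion at the 95% level; chance gives about 1 in 20. Hadha in GW replicate 3 of WT was the lowest at 122 CPM, with the next library at 237 CPM. Hadh in GW replicate 2 of DA was the highest at 147 CPM, with the next at 104 CPM. Echs1 in vehicle replicate 2 of A was the lowest at 149 CPM, with the next at 177 CPM. Decr1 in vehicle replicate 2 of D was the highest at 102 CPM, with the next at 74.1 CPM. Without GW replicate 3 of WT, the log2 fold change of Hadha for GW in WT was 1.099 (edgeR, adjusted p = 0.000169), against 0.95 with it.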

How the results depend on the processing

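No paired analysis was possible because the columns carry no replicate number. Of the 3 members passing for GW in WT, 3 passed under every setting but these: 2 in libraries 1 to 36, 0 in libraries 37 to 60, and 2 with only the groups compared, where Hadha had an adjusted p of 0.0986 (edgeR). For GW in A, 4 passed, against 1 in libraries 1 to 36, 2 in libraries 37 to 60, 3 with only the groups compared (without Acaa2, adjusted p = 0.437 by edgeR) and 3 without the suffix-2 columns (edgeR, Hadha adjusted p = 0.0579). For DA minus WT under GW, 2 passed, against 0 in libraries 37 to 60 and 3 with the library-number block, where Acaa2 had an adjusted p of 0.0448 (edgeR). Fits within a run rest on fewer libraries. With 1 library left out, 3 to 3 passed for GW in WT, 2 to 4 for GW in A and 2 to 3 for DA minus WT under GW; 0 passed in the other 12 comparisons.

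For GW in each genotype and for DA minus WT under GW, values whose sign changed were all of members that passed in neither version. In WT these were Hadh -0.21 and Eci1 0.0219 in libraries 37 to 60, and Decr1 0.0149 in libraries 1 to 36 and 0.0948 without suffix-2 columns. In D they were Eci1 -0.0100 with no filter and -0.00333 in libraries 1 to 36, and Decr1 -0.0593 in libraries 1 to 36. In A they were Hadh -0.0247 and Eci1 -0.0247 in libraries 37 to 60, and Echs1 0.0425 in libraries 1 to 36. In DA they were Hadhb -0.00728 with the block and -0.0907 in libraries 1 to 36, Hadh 0.34 in libraries 1 to 36 and 0.0286 with limma, and Echs1 -0.00176 with no filter, -0.10 in libraries 37 to 60 and -0.0304 without suffix-2 columns. In DA minus WT under GW they were Hadh 0.00561 and Echs1 -0.0138 in libraries 1 to 36. Sign changes in the other comparisons are not listed, and signs differed between the runs there too for some members. Hadha in A minus WT in vehicle had 0.33 in libraries 1 to 36 and -0.36 in libraries 37 to 60. For the GW response of Eci2 in A minus WT these were -0.24 and 0.57. The cause was not tested. With 1 library left out, log2 fold changes ran from -0.0409 to 0.22 (Hadh), -0.14 to 0.0948 (Eci1) and -0.11 to 0.0948 (Decr1) in WT, -0.12 to 0.12 (Eci1) in D, -0.0698 to 0.20 (Hadh) and -0.16 to 0.00349 (Echs1) in A, and -0.0696 to 0.0937 (Hadhb), -0.22 to 0.16 (Hadh) and -0.0984 to 0.0825 (Echs1) in DA.

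Over all genes, 20 passed for GW in WT, against 45 with no filter and 11 in libraries 1 to 36; 15 in A, against 28, 3 and, with only the groups compared, 9; and 41 for DA minus WT under GW, against 110 and 20 and, with the block, 65. With no filter, 8 passed in D and 10 in DA.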
